A study of Mus musculus with 49 samples.

Results

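Heat shock and chaperone genes were followed here through 3 ways of taking RNA from medium spiny neurons of the mouse nucleus accumbens. The members were the protein-coding genes whose symbols place them in the HSP70 and HSP110 (Hspa, Hsph), small heat shock protein (Hspb), chaperonin (Hspd, Hspe), J-domain (Dnaja, Dnajb, Dnajc) or BAG (Bag1 to Bag6) families, together with the heat shock factors Hsf1 and Hsf2. The rule used symbols and no measured value, and it gave 79 of the 52636 genes in the count table. The families held 14 HSP70 and HSP110 genes, 45 J-domain genes (4 Dnaja, 13 Dnajb, 28 Dnajc), 8 small heat shock protein genes, 6 BAG genes, 2 chaperonin genes, 2 HSP70 partner genes (Hspbap1 and Hspbp1) and 2 heat shock factors.

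Chaperones of the HSP70 family bind unfolded stretches of other proteins and release them on ATP exchange. J-domain proteins bring them their clients and speed ATP hydrolysis, BAG and HSP110 proteins drive nucleotide exchange, and chaperonins fold proteins in a closed chamber. Some members are made at all times, while others are switched on by heat, misfolded protein or cell injury through heat shock factor 1, which binds repeats of the unit nGAAn in promoters called heat shock elements. A separate response of the endoplasmic reticulum (ER) acts through ER stress elements, and in neurons Hspa8 with its J-domain partners Dnajc5 and Dnajc6 also serves synaptic vesicles.

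Promoter sequence is shown for the members that carry such elements and on which the results turn. RefSeq promoters (GRCm38.p6, 250 bases before the start) were matched for 65 of the 79 members, and Hspa8 was among the 14 with no entry. On either strand, a heat shock element of 2 units (GAANNTTC or TTCNNGAA) was present in 14 of the 65 (21.5%), against 12.8% of all 32851 promoters and 14.5% of all 27025 genes in the table. Elements of 3 units (GAANNTTCNNGAA or TTCNNGAANNTTC), which overlap those of 2 units, were in the promoters of 3 members (4.62%; Dnajb6, Hspd1 and Hspe1), in 0.466% of all promoters and in 0.514% of genes. The ER stress element, CCAAT and CCACG with 9 bases between them, was in 2 (3.08%; Dnajc3 and Hspa5), in 0.113% of all promoters and in 0.13% of genes. A match is a description of letters and not a bound site. Where the element lay in an annotated exon, only a window of 30 bases is shown. These windows lie before the RefSeq start used, but within or across the end of the annotated span of Hsph1, Dnaja1 and Hspa5 themselves. The window of Hspe1 lies within the span of Hspd1. The heat-inducible neighbours Hspa1a (upstream of its start at chr17:34972157-34972406, minus strand) and Hspa1b (chr17:34959239-34959488, minus strand) differed in 3 of the 250 bases, and capitals mark the 2-unit element:
Hspa1a: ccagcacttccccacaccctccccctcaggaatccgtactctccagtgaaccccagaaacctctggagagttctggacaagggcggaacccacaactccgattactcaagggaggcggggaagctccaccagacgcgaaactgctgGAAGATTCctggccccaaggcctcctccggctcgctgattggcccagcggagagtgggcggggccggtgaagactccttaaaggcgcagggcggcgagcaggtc
Hspa1b: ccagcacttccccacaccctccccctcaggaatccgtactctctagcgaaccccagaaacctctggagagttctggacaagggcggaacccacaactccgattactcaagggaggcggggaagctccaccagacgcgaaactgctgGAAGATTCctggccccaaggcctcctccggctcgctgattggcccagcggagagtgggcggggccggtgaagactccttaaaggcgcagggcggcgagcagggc
Windows of 30 bases are shown for Hsph1 (chr5:149636351-149636380, minus strand), Dnaja1 (chr4:40722333-40722362, plus strand), Hspe1 (chr1:55088050-55088079, plus strand, where 2 overlapping elements of 3 units are in capitals) and Hspa5 (chr2:34772019-34772048, plus strand, where the capitals are the ER stress element):
Hsph1: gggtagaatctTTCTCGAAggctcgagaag
Dnaja1: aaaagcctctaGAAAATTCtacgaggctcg
Hspe1: cacggtccgTTCTAGAACCTTCCGGAAggc
Hspa5: acttcaCCAATCGGAGGCCTCCACGacggg

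All mice were on the C57BL/6J background with no treatment, by the paper each sample came from 1 mouse, and no age was given in the sources used here. Nuclei were taken on ice from frozen tissue of Drd1-cre or Drd2-cre mice that carried a nuclear EGFP reporter behind a stop cassette in Thy1, and were sorted (6 D1, 5 D2, labelled male). Whole cells were taken from fresh tissue digested with papain for 45 minutes at 37 °C, in mice with a cytoplasmic fluorophore under the Drd1 or the Drd2 promoter, and were sorted (8 D1, 6 D2, labelled male). RiboTag RNA was pulled down through HA-tagged Rpl22 from Drd1-cre or Drd2-cre mice (6 D1 and 6 D2 labelled male, 5 D1 and 5 D2 labelled female). D1 and D2 denote neurons selected through the promoter of the dopamine receptor gene Drd1 or Drd2, so each method also sampled whatever other cells that promoter or sort passed. Compartment, tissue state, digestion, sorting and pull-down changed together between methods and cannot be told apart.

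Total counts per library ran from 3701255 to 68777008. The 10 highest genes held 84.9 to 88.3% of the counts in RiboTag libraries, 2.7 to 54.5% in whole cell and 5.23 to 66.9% in nuclear libraries. Among sorted libraries they held over 50% in whole cell D2 number 2 and in nuclear D1 numbers 1, 5 and 6. The nuclear D2 against D1 comparison and its interaction with whole cells are also given without these. The comparisons of whole cells with nuclei, and of D2 with D1 in whole cells, are not given without them. Drd1 was 10.6 to 27.9 CPM (counts scaled to the same total in each library) in nuclear D1 and 3.33 to 8.00 in nuclear D2 libraries, and Drd2 was 49.2 to 197 and 261 to 495 CPM, so Drd2 exceeded Drd1 also in nuclei labelled D1. Penk, the enkephalin precursor of D2 neurons, went against the labels in nuclei, at 207 to 941 normalised CPM in D1 and 33.5 to 184 in D2. Of the 12 RiboTag libraries labelled male, 6 (D1 numbers 1 to 4, D2 numbers 2 and 6) had more Xist than Ddx3y counts, as did all 10 labelled female and 1 of the 25 others (nuclear D2 number 7, at 7.57 against 6.48 CPM).

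Counts at genes that these neurons are not known to express gave a measure of background. Counts per kilobase at 1431 olfactory and vomeronasal receptor genes, spread over all gene spans, would amount to 32.4 to 52.2% of the counts in nuclear D2 libraries, 0.578 to 22.2% in nuclear D1, 8.33 to 52.4% in whole cell and 0.0257 to 0.0631% in RiboTag libraries. Against this measure, 25 of the 79 members were within 2-fold of background or below it in nuclear D2, 3 in nuclear D1, 11 in whole cell D1 and 10 in whole cell D2. The members together held 0.167 to 0.616% of the counts in whole cell, 0.0912 to 0.17% in nuclear and 0.0745 to 0.0976% in RiboTag libraries. The counting took introns with exons, ignored strand and counted overlapping genes each. Of the members, 43 were overlapped by another annotated gene and 8 over at least 50% of their span (Dnaja3, Dnajb3, Dnajb7, Dnajc19, Dnajc25, Dnajc28, Hspa1a and Hspb2), so their counts are uncertain.

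The first question was which chaperones each method recovered, and Hspa8, the constitutive cytosolic HSP70, came first in all 3. Per kilobase of gene span and on one scale for the 37 male-labelled libraries, Hspa8 (ENSMUSG00000015656, chr9:40800984-40810087, plus strand, GRCm38) stood at 109.2 ± 5.42 CPM per kb (SD, n = 12) in RiboTag, 35.3 ± 23.9 (n = 14) in whole cell and 9.46 ± 12.8 (n = 11) in nuclear libraries. Hspa5 (ENSMUSG00000026864, chr2:34771970-34777547, plus strand), the HSP70 of the ER lumen, came second in all 3, at 26.05 ± 2.23, 9.81 ± 7.18 and 2.93 ± 2.50 CPM per kb. In RiboTag libraries the order went on with Bag5 (13.57 ± 1.38), Hsph1 (11.43 ± 0.505) and the mitochondrial HSP70 Hspa9 (9.09 ± 0.535). In whole cells Bag5 (4.14 ± 2.46), Hsph1 (3.56 ± 1.86) and the co-chaperonin Hspe1 (2.56 ± 1.70) followed, and these 3 neighbours lay within their spread. In nuclei Dnajb5 (1.40 ± 0.911), Hsph1 (1.33 ± 1.26) and Hspa9 (1.22 ± 1.21 CPM per kb) followed, also within their spread. With summed exons as the length Hspa8 kept the first place in RiboTag, in whole cells and in nuclear D1. In nuclear D2 it fell to place 14 (2.45 CPM per kb), with Dnajc5b (12.3), Dnajc6 (9.20) and Dnajc17 (7.35) in front. That order is limited by intron counts and background. Exons make up 1.23% of the span of Dnajc5b, which held place 76 by span. In nuclear D2 its counts were 1.36 times the predicted background, against 3.24 for Dnajc6, 2.4 for Dnajc17 and 10.7 for Hspa8.

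On one scale across methods, levels of Hspa8 set RiboTag apart from both sorted preparations, and nuclear D2 from nuclear D1. On the scale for all male-labelled libraries its lowest, median and highest CPM were 922, 1020 and 1083 in RiboTag D1 and 930, 988 and 1002 in RiboTag D2. The corresponding values were 69.7, 380 and 739 in whole cell D1, 103, 198 and 483 in whole cell D2, 29.6, 119 and 354 in nuclear D1 and 5.96, 10.6 and 14.8 in nuclear D2. The 12 RiboTag libraries did not overlap any other, whole cell D1, whole cell D2 and nuclear D1 overlapped, and the 5 nuclear D2 libraries lay below all others. That order belongs to this scale, on which the median of all genes was -1.91 in RiboTag against whole cells. In CPM without it, Hspa8, Dnajc5 and Dnajc6 summed to 242 to 297 in male-labelled RiboTag D1 and 239 to 263 in RiboTag D2. The same sum was 431 to 2045 in whole cell D1 and 335 to 1495 in whole cell D2.

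**Figure D1:**
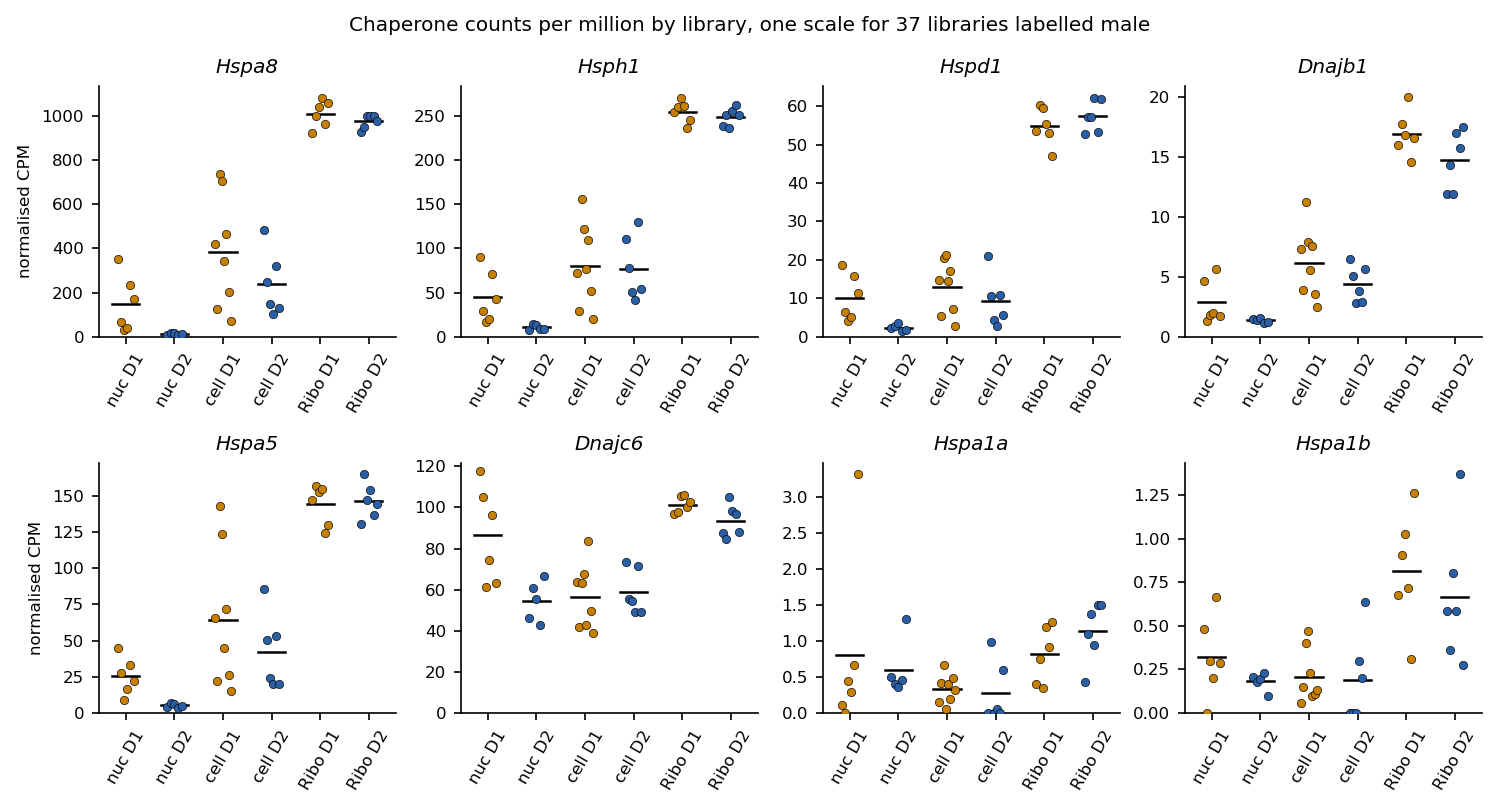
Normalised CPM of 8 chaperone genes in the 37 male-labelled libraries on one scale, 1 panel per gene, by method, with D1 libraries in orange, D2 libraries in blue and a bar at each group's mean. For Hspa8 the RiboTag libraries sit between 922 and 1083 CPM and the nuclear D2 libraries between 5.96 and 14.8, while Hspa1a and Hspa1b stay at or below 3.31 CPM in every group. The place of RiboTag relative to whole cells depends on this scale.

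More chaperone RNA was found in whole cells than in nuclei, with members of the cytosol, the ER and the mitochondrion among those that rose. In edgeR's quasi-likelihood test over 29901 genes, with Benjamini-Hochberg adjustment, 37 of the 75 members tested were higher in whole cells and 0 lower at an adjusted p of at most 0.05 (49.3% higher), against 12.8% of all genes higher and 7.23% lower. The members' median log2 difference was 0.41 and that of all genes 0.13. Besides Hspa8 (log2 difference 2.93 ± 0.36, SE, adjusted p = 9.9e-08), the members with the smallest p were Bag5 (2.33 ± 0.31), a BAG protein that acts on HSP70, Hspa5 (2.17 ± 0.30), the HSP110 gene Hsph1 (1.85 ± 0.27), Dnajc9 (1.62 ± 0.26), a J-domain protein that binds histones, and Dnajb1 (1.43 ± 0.22), the inducible HSP40. The families contributed 9 of 14 HSP70 and HSP110 genes, 3 of 4 Dnaja, 8 of 12 tested Dnajb, 12 of 28 Dnajc, 3 of 6 BAG genes, both chaperonin genes, 0 of 5 tested small heat shock proteins and 0 of 2 heat shock factors.

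Within compartments, 5 of 7 ER members rose in whole cells over nuclei, among them Hspa13 (1.53 ± 0.27), Dnajb9 (0.94 ± 0.24), which serves ER-associated degradation, and Dnajb11 (0.71 ± 0.16) and Dnajc10 (0.68 ± 0.21), while Dnajc1 (-0.27 ± 0.12) and Dnajc3 (0.15 ± 0.14) did not pass. Of 6 mitochondrial members 5 rose, with Hspe1 at 1.71 ± 0.33, Hspa9 at 1.42 ± 0.27, the chaperonin Hspd1 at 1.16 ± 0.29, the protein import factor Dnajc19 at 0.98 ± 0.19 and Dnajc15 at 0.41 ± 0.11, and Dnaja3 (-0.13 ± 0.11) did not pass. Hspd1 and Hspe1 are transcribed head to head and overlap (chr1:55077835-55088243, minus strand, and chr1:55088132-55091307, plus strand). Of the synaptic members, Dnajc5, the cysteine string protein, rose with Hspa8 (1.19 ± 0.21), and Dnajc6 (auxilin), which uncoats clathrin vesicles with Hspa8, stood at -0.25 ± 0.12 with an adjusted p of 0.18. A list of 11 members known to rise with heat held Hspa8 too, which is mainly constitutive. Of the 9 others tested 6 rose (Hsph1, Hspd1, Hspe1, Dnaja1, Dnajb1 and Dnajb4). The remaining 3 were Hspa1a (-1.14 ± 0.62, adjusted p = 0.23), Hspa1b (-0.31 ± 0.56, adjusted p = 0.81) and Bag3 (0.12 ± 0.27, adjusted p = 0.85), a co-chaperone of stress-induced autophagy.

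Hspa1a (ENSMUSG00000091971, chr17:34969190-34972156, minus strand) and Hspa1b (ENSMUSG00000090877, chr17:34956436-34959238, minus strand), whose transcripts rise most after heat in many cells, were near background in whole cells and in nuclear D2. Whole cell D1 libraries together held 102 counts of Hspa1a where the background predicted 77.9, and 62 of Hspa1b where it predicted 73.6. Whole cell D2 libraries held 46 and 34 counts against 49.1 and 46.4. Nuclear D2 libraries held 223 and 101 against 162 and 153. Nuclear D1 libraries held 73 and 51 against 26.3 and 24.9, which is 2.77 and 2.05 times background, and 23 of the 73 counts of Hspa1a were in number 6. RiboTag libraries labelled male held few counts but far above their background, 35 and 36 in D1 and 51 and 30 in D2, where 0.154 to 0.17 were predicted. The copies share 58.8% of the 2918 windows of 50 bases in Hspa1a and 62.3% of the 2754 in Hspa1b, and fragments that mapped to several places were left out of the counts, so both are uncertain. The small heat shock protein Hspb1 was likewise near background in whole cells (46 counts against 43.2 in D1, 50 against 27.2 in D2) and in nuclear D2 (161 against 89.6), with 30 against 14.6 in nuclear D1. In the sorted groups Hsf1 was 2.76 to 5.95 times background and Hsf2 1.96 times in nuclear D2 and 3.57 to 5.31 times in the others. The levels of Hsf1 were 5.31 to 10.3 CPM in whole cells, 6.19 to 13.7 in nuclei and 3.81 to 7.52 in RiboTag. The log2 differences between whole cells and nuclei were -0.21 ± 0.14 (Hsf1, adjusted p = 0.38) and 0.39 ± 0.18 (Hsf2, adjusted p = 0.13).

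**Figure D2:**
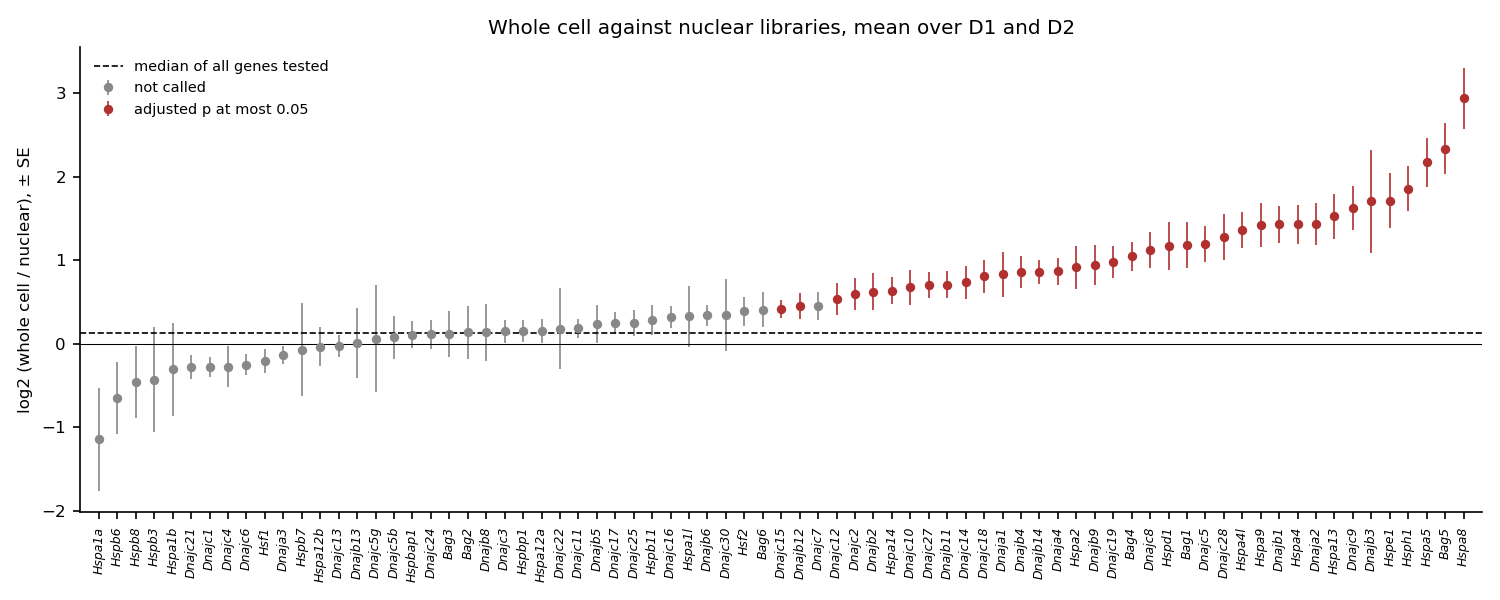
Log2 difference between whole cell and nuclear libraries for the 75 members tested, sorted, with bars of 1 SE, called members in colour and the median of all genes as a dashed line. Hspa8 lies highest at 2.93 and Hspa1a lowest at -1.14, and 37 members were called higher and 0 lower.

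Genes of the same response outside the families moved the same way by count. Of 27 such genes (among them the HSP90 proteins, their partners and the CCT chaperonin) 22 were higher in whole cells and 1 lower, the small heat shock protein Cryab (-2.09), which oligodendrocytes also express. The immediate early genes, an activity and injury response of another kind, gave 1 higher (Junb, 1.77) and 1 lower (Zfp36, -1.67) of 15. Of 10 markers of medium spiny neurons 7 were higher in whole cells and 0 lower, with a median of 1.11. Among glial markers, 5 of 7 astrocyte, 5 of 7 oligodendrocyte and 3 of 7 microglial markers were lower in whole cells and 0 higher. Of 6 endothelial markers tested 0 were called in either direction. The neuronal markers summed to 2022 to 15500 normalised CPM in whole cells and 2693 to 6919 in nuclei, each on its own method's scale. On those scales the glial sums were 123 to 602 (astrocyte) and 181 to 420 (oligodendrocyte) in whole cells and 1242 to 3378 and 852 to 2256 in nuclei, with none of these markers at 0 throughout. Microglial sums overlapped, at 158 to 483 in whole cells and 180 to 609 in nuclei. The part of neuronal share, glial RNA, background or exon content in the result was not tested. Members whose exons made up more of their span than the median of 0.206 had a median difference of 0.832 and the others 0.265 (Spearman's rho 0.273 across 75 genes, which share libraries and are not independent).

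The counts in each direction moved with the scaling and with the cell type. DESeq2 called 37 higher and 5 lower (12.2% and 10.2% of genes), and over the 4625 genes that passed the filters of every method 25 of 34 members were higher and 2 lower (Dnajc6 and Dnajc21, both at -0.63), where 32.8% of genes were higher and 30.2% lower. With D1 libraries alone 12 were higher and 4 lower (8.44% and 10.7% of genes), and with D2 libraries alone 38 and 0 (16.5% and 3.68% of genes). Hspa8 stood at 1.37 with D1 and 4.50 with D2 libraries, Hspa5 at 1.33 and 3.01, Bag5 at 1.48 and 3.19 and Dnajc9 at 1.00 and 2.24. The call on Hsph1 was lost with D1 libraries alone (0.82, adjusted p = 0.0882) and stood at 2.88 with D2.

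RiboTag libraries were set against both sorted preparations, on a scale where the median of all genes was -1.91 against whole cells and -2.19 against nuclei, so members are read relative to these shifts. Against whole cells 49 of 75 members were higher (65.3%, against 24.6% of genes) and 19 lower (25.3%, against 63.4%), with a median of 0.98. Against nuclei 50 were higher (66.7%, against 26.2%) and 16 lower (21.3%, against 64%), with a median of 1.47. The members with the smallest p among those higher than in whole cells were Bag6 (2.76 ± 0.21), a holdase for tail-anchored proteins, Hspa12a (1.49 ± 0.14), Bag4 (1.69 ± 0.17), Dnaja1 (2.53 ± 0.26), Dnajb14 (1.31 ± 0.14) and Dnajb12 (1.43 ± 0.15), the last pair being J-domain proteins of the ER membrane. The call on Dnajb12 was lost over the genes that passed the filters of every method (0.02, adjusted p = 0.819). Against nuclei they were Bag4 (2.74 ± 0.19), Dnajb14 (2.17 ± 0.15), Bag6 (3.17 ± 0.24), Dnajb1 (3.02 ± 0.24), Dnaja4 (2.19 ± 0.17) and Dnajc5 (2.86 ± 0.23), and Hspa8 differed by 4.65 ± 0.40.

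The members called below 0 in RiboTag against whole cells were led by Dnajc5b, a relative of Dnajc5 (-5.59 ± 0.39), Hspbap1 (-1.76 ± 0.17), Dnajc24 (-1.89 ± 0.19), Dnajb8 (-4.88 ± 0.49), Dnajb13 (-5.58 ± 0.71) and Dnajc25 (-1.18 ± 0.16). Relative to the median of all genes (-1.91), Dnajc5b, Dnajb8 and Dnajb13 lay below it and Hspbap1, Dnajc24 and Dnajc25 above it. Of the 75 members tested, 67 lay above that median. In whole cell D1 libraries their counts were 1.38 (Dnajc5b), 2.11 (Hspbap1), 2.71 (Dnajc24), 2.56 (Dnajb8), 1.66 (Dnajb13) and 2.38 (Dnajc25) times the predicted background. Against nuclei Dnajc1 (-1.05 ± 0.13) was also among the 6 below 0 with the smallest p, but lay above the median of all genes there (-2.19). Hspb7 had 0 counts in every RiboTag library. The part of background in these differences was not tested.

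The genes that passed the filters of every method gave a closer balance. There 13 of 34 members were higher in RiboTag than in whole cells and 7 lower, against 34.4% and 36.8% of genes, with medians of 0.16 for members and -0.03 for all. The higher ones included Dnajc30 (1.55), Bag6 (1.42), Dnaja1 (1.24), Hspd1 (1.09), Hspa9 (0.74), Hspa8 (0.45) and Hsph1 (0.38). Among the lower ones Dnajc6 (-0.70), Dnajc19 (-0.70) and Dnajb4 (-0.79) turned direction, since on all genes they stood at 0.76, 0.66 and 0.56. Against nuclei 23 were higher and 4 lower, against 41.2% and 38.7% of genes, with Hspa8 at 2.93 and with Dnajc6 (-1.33) and Dnajb4 (-0.41) again on the other side from all genes (0.51 and 1.42).

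The second question was how D1 and D2 neurons differed within each method, and most chaperone calls came from nuclei. Of 37 members that passed the filter (9228 genes tested), 10 were lower in nuclear D2 and 1 higher, which is 27% and 2.7% of members against 10.4% and 5.7% of genes. The members' median was -0.25 and that of all genes 0.03. The lower ones were the cytosolic Hspa8, Hsph1, Dnaja1 and Dnaja2, the ER members Hspa5 and Dnajb9, the mitochondrial Hspa9, Hspd1 and Dnajc19, and Dnajc8, a nuclear J-domain protein tied to splicing. Auxilin, Dnajc6, was the higher one. In bulk RNA, fewer cells of a type and less RNA per cell cannot be told apart.

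For the D2 against D1 comparisons, CPM are scaled within the libraries compared, so they differ from those on the scale across methods. Hspa8 stood at 889, 192, 146, 146, 654 and 658 normalised CPM in nuclear D1 numbers 1 to 6 and at 51.9, 89.2, 91, 53.6 and 67.4 in the 5 nuclear D2 libraries. The groups did not overlap, and the highest values were those of D1 numbers 1, 5 and 6. The log2 difference was -2.66 ± 0.48 (adjusted p = 0.00923). Without those 3 libraries it was -1.30 (adjusted p = 0.0402). Hspa8 counts were 232 times the predicted background in nuclear D1 and 10.7 times in nuclear D2.

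Hspa5 ranged from 46.1 over a median of 82.5 to 113 CPM in nuclear D1 and measured 31.9, 43.3, 41.1, 30.7 and 31.2 in nuclear D2, with no overlap (-1.15 ± 0.22, adjusted p = 0.0092; -0.90 and adjusted p = 0.0419 without the 3 libraries). Dnajb9 ranged from 8.79 to 18.2 CPM in D1 and from 4.45 to 7.98 in D2, again apart (-0.88 ± 0.29, adjusted p = 0.049). Among the mitochondrial members Hspa9 had D1 values of 48.8 to 165 CPM and D2 values of 23.5 to 49.8, and 1 D1 library fell among the D2 values (-1.29 ± 0.31, adjusted p = 0.016). Hspd1 went from 18.4 to 47.1 CPM in D1 and from 10.8 to 21.3 in D2, with overlap (-0.97 ± 0.31, adjusted p = 0.045). Dnajc19 did not overlap, at 44.2 to 55.7 CPM in D1 and 28 to 39.9 in D2 (-0.47 ± 0.14, adjusted p = 0.038; -0.63 and adjusted p = 0.0439 without the 3 libraries).

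Hsph1 (ENSMUSG00000029657, chr5:149614287-149636376, minus strand) measured 227, 85.9, 83, 74.9, 199 and 164 CPM in nuclear D1 numbers 1 to 6 and 61.4, 86.8, 83.9, 73 and 53.4 in D2. Outside D1 numbers 1, 5 and 6 the groups overlapped, and the call (-0.94 ± 0.29, adjusted p = 0.042) was lost without those 3. Dnaja1 (-0.998 ± 0.26), Dnaja2 (-0.79 ± 0.24) and Dnajc8 (-0.75 ± 0.21) were called as well, with D1 and D2 ranges of 40.4 to 113 and 30.2 to 41.6 CPM for Dnaja1, 46.2 to 106 and 34.1 to 49.6 for Dnaja2, and 44.7 to 89.7 and 28 to 44.8 for Dnajc8, so that each overlapped in part.

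Dnajc6 (ENSMUSG00000028528, chr4:101496648-101642799, plus strand) was 244 to 307 CPM in nuclear D1 and 345 to 426 in D2 with no overlap, a difference of 0.41 ± 0.11 (adjusted p = 0.027) that turned to -0.74 with no filter on FPKM, where the median of all genes was 0.26. Its synaptic partner gene Dnajc5 stood at -0.23 ± 0.20 (adjusted p = 0.44). The inducible Dnajb1 stood at 0.10 ± 0.33 (adjusted p = 0.85) and Hspa1a at 0.50 ± 0.90 (adjusted p = 0.73), and Hspa1b, Bag3, Hsf1 and Hsf2 did not pass the filter. Hspa2, the HSP70 best known from the testis (-1.28 ± 0.42, adjusted p = 0.0518), and Hspe1 (-1.21 ± 0.50, adjusted p = 0.11) had estimates as low as the called members and did not pass.

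**Figure D3:**
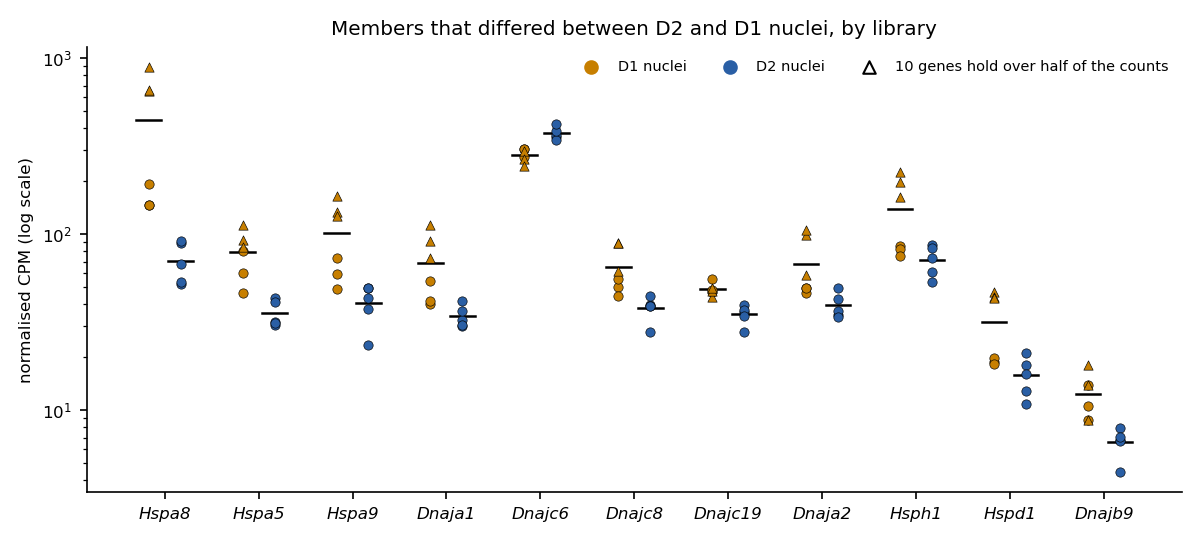
Normalised CPM, scaled within the nuclear libraries and on a log axis, of the 11 members called between nuclear D2 and D1 libraries. There is 1 point per library, with triangles for the 3 D1 libraries whose 10 highest genes held over 50% of the counts. For Hspa8 those triangles lie at 654 to 889 CPM, the other D1 libraries at 146 to 192 and the D2 libraries at 51.9 to 91. Dnajc6 was called higher in D2 here, and its direction turned with no filter on FPKM.

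The nuclear calls rested on few libraries. Without D1 numbers 1, 5 and 6 together 4 members were called, Hspa8, Hspa5 and Dnajc19 lower (7.14% of the 42 tested, against 4.55% of genes) and Dnajc11 higher (0.48, adjusted p = 0.0404, against 2.01% of genes). Dnajc19 is overlapped over 77.6% of its span by Fxr1 and Gm43668, so its counts may include theirs. Leaving out 1 library gave 6 calls without D1 number 1 or D1 number 5, 4 without D2 number 1, 6 without D2 number 2, 5 without D2 number 3, 2 without D2 number 5 and 3 without D2 number 7. With no filter on FPKM 40 of 73 members were lower and 1 higher, where 20.6% of genes were lower and 5.6% higher.

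Other gene groups moved beside them. Of 23 tested genes of the response outside the families 7 were lower in nuclear D2, including Ubb (-3.59), which codes for polyubiquitin, and the HSP90 genes Hsp90ab1 (-2.68), Hsp90aa1 (-2.15) and Hsp90b1 (-1.32). Of 10 immediate early genes 2 were lower, Egr1 (-1.47) and Jun (-1.28). Mitochondrial transcripts were 0.162 to 1.78% of counts in nuclear D1 and 0.0298 to 0.133% in nuclear D2. Astrocyte markers were lower in 3 of 6 tested, with summed CPM of 1294 to 3378 in D1 and 1242 to 1657 in D2, and oligodendrocyte markers in 1 of 7 (852 to 2256 and 896 to 1801). Endothelial markers summed to 53.8 to 530 CPM in D1 and 658 to 1194 in D2, and microglial markers to 180 to 415 and 420 to 609, with none of these markers at 0 throughout. The part of these values and of the background in the nuclear differences was not tested.

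In whole cells, D1 and D2 neurons differed in 1 of 55 members tested. Dnajc2 (ENSMUSG00000029014, chr5:21757267-21785251, minus strand), a J-domain protein of the ribosome, went from 62.4 over a median of 105.5 to 154 CPM in D1 and from 39.9 over 62.9 to 74 in D2, with overlap (-0.87 ± 0.21, adjusted p = 0.0466). The share of members lower was 1.82%, against 0.783% of genes. Hspa8 ranged from 479 over a median of 1617 to 2708 CPM in D1 and from 535 over 841 to 1403 in D2, a difference of -0.81 ± 0.34 that did not pass (adjusted p = 0.25). Dnajb9 (-1.06 ± 0.32, adjusted p = 0.099) and Hspe1 (-0.93 ± 0.34, adjusted p = 0.18) did not pass either. The estimates of 44 of the 55 members were below 0 and their median was -0.25, with -0.09 for all genes, and 18 had an unadjusted p under 0.05. Outside the families Hsp90aa1, the inducible HSP90, was the 1 of 25 called (-1.30, adjusted p = 0.0439). The call on Dnajc2 was lost with DESeq2's size factors, with no filter on FPKM and without the library named as a repeat of D1 number 1, and kept with that repeat as a library of its own.

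RiboTag libraries gave small differences with little spread. In those labelled male 4 of 46 members were called, Bag5 higher in D2 (2.17%, against 4.08% of genes) and Hspa12a, Hspa2 and Hspa4l lower (6.52%, against 5.22%). Hspa12a (ENSMUSG00000025092, chr19:58795750-58943654, minus strand), a distant HSP70 relative of the brain, had 22.6, 25.1 and 25.3 CPM as lowest, median and highest in D1 and 18.9, 21 and 22 in D2, with no overlap (-0.25 ± 0.05, adjusted p = 0.0016). Bag5 (ENSMUSG00000049792, chr12:111709488-111713257, minus strand) had 9.86, 10.3 and 11.2 CPM in D1 and 11.5, 12.2 and 12.7 in D2, also apart (0.24 ± 0.05, adjusted p = 0.0031). Hspa2 (-0.38 ± 0.10, adjusted p = 0.023) and Hspa4l, an HSP110 relative (-0.16 ± 0.05, adjusted p = 0.037), overlapped between D1 and D2. Without the 6 libraries whose sex genes went against the label (4 of 6 D1 and 2 of 6 D2) 0 of the 4 passed, with Hspa12a at -0.27 (adjusted p = 0.0614), Bag5 at 0.25 (adjusted p = 0.124), Hspa2 at -0.32 (adjusted p = 0.27) and Hspa4l at -0.17 (adjusted p = 0.241). The part of the smaller number of libraries in these lost calls was not tested.

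In RiboTag libraries labelled female 2 of 47 members were called, 1 in each direction (2.13%), against 1.97% of genes higher and 2.55% lower. Hspa12a measured 26.4, 26.4, 27, 27.7 and 25.1 CPM in D1 and 20.1, 23.4, 23.6, 21.1 and 24.5 in D2, with no overlap (-0.24 ± 0.06, adjusted p = 0.022). Dnajc2 measured 12.9, 11.8, 12.3, 11.5 and 12.2 CPM in D1 and 14.4, 14.1, 14.5, 15.5 and 13.7 in D2, also with no overlap (0.25 ± 0.06, adjusted p = 0.012). Bag5, at 10.6 to 12.5 CPM in D1 and 12.1 to 14.3 in D2, did not pass (0.19 ± 0.07, adjusted p = 0.13). The count rose to 3 without D1 number 1, D1 number 2 or D2 number 2, and fell to 1 without D1 number 5, D2 number 1 or D2 number 5. Hspa8 ranged from 205 to 242 CPM in D1 and 209 to 224 in D2 labelled male, and from 214 to 265 and 191 to 223 in those labelled female, overlapping in both.

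**Figure D4:**
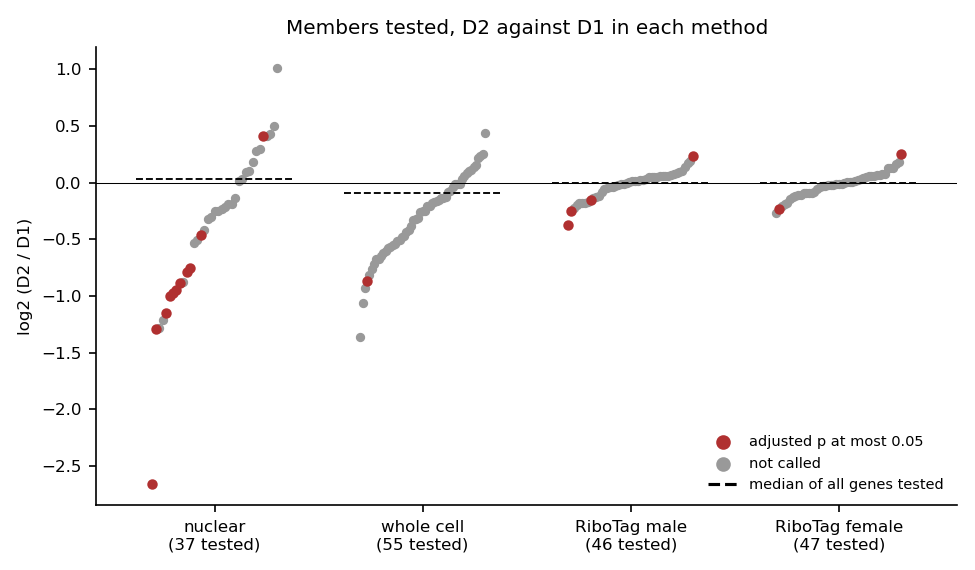
Log2 difference between D2 and D1 libraries for the members tested in each of 4 comparisons (37 nuclear, 55 whole cell, 46 RiboTag male, 47 RiboTag female), 1 point per member, called members in colour. Hspa8 lies at -2.66 in nuclei and at -0.81 in whole cells, and the called RiboTag members lie between -0.38 and 0.25.

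Between RiboTag libraries labelled female and male 0 of 48 members were called by edgeR, against 0.0837% of genes, with 5 members at an unadjusted p under 0.05 and 0 called by DESeq2. The lowest p belonged to Dnajb4 (0.18 ± 0.05, adjusted p = 0.196), and 6 of the 12 male-labelled libraries went against their label here.

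Whether the D2 against D1 difference itself changed with the method was tested as an interaction. Between whole cells and RiboTag 0 of 75 members differed by edgeR, against 0.12% of genes, with 3 at an unadjusted p under 0.05 and 0 by DESeq2. Between nuclei and whole cells 28 differed, 25 more negative in nuclei (33.3%, against 15.8% of genes) and 3 more positive (4%, against 6.12%), while the median of all genes was 0.33. The more negative ones with the smallest p were Dnajb12 (-1.50), Hspa8 (-3.14), Hsph1 (-2.05), Hspa9 (-2.02), Dnajc7 (-1.26) and Hspa2 (-1.89). Dnajc7 is overlapped over 26.3% of its span by Nkiras2 and the oligodendrocyte marker Cnp, so its counts may include theirs. The more positive ones were Dnajc5b (1.67), Hspa1l (2.12) and Dnajc17 (0.72). Across the 4 sorted groups, counts of Dnajc5b were 1.18 to 1.38 times the predicted background and those of Hspa1l 1.44 to 2.28 times. Dnajc17 stood at 2.4 to 3.95 times. The part of background in the interaction was not tested. DESeq2 gave 20 more negative and 7 more positive (13.3% and 16.3% of genes). Without the 4 libraries whose 10 highest genes held over 50% of the counts 4 differed, Dnajb12, Dnajc1 and Dnajc13 more negative and Dnajc5b more positive (10.2% and 1.99% of genes). These comparisons share the whole cell libraries.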

How the data were processed

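RNA sequencing counts of 47 libraries were analysed, from 49 columns with 0 left unmatched. No column carried the name of 2 further whole cell D2 samples. Whether columns that were summed as runs hold their counts is not settled. The authors aligned reads to GRCm38 with HISAT2 (2.0.5), counted fragments over genes with featureCounts and deposited whole-number counts per gene. Gene positions came from the GENCODE annotation of GRCm38, matched for 52489 genes. Columns named as runs of a library were summed, which for whole cell D1 number 1 may join separate mice. Following the study's methods, genes over 1 CPM in 2 libraries were kept, then over 1 FPKM (nuclear and whole cell) or 0.1 FPKM in 2 libraries (RiboTag) within a method. TMM-normalised counts were tested with edgeR (4.0.16) and R (4.3.3), with Benjamini-Hochberg adjustment over all genes. Alternatives were DESeq2 (1.42.0), its size factors, no FPKM filter, a replicate block, each library left out and D1 or D2 alone. Leaving out RiboTag libraries with contrary sex genes or libraries dominated by 10 genes was chosen after seeing the data. CPM floors of 3 counts were 0.0436 to 0.811 and cover counting error only. The script was tested on simulated data. Members and lists were chosen with earlier results of these data known. The text names the heat shock factors, BAG genes, compartment lists, up to 6 called members a direction by p, and the 5 highest per method. Shared replicate numbers did not pair samples. By the paper mice were separate, and p-values measure the spread between libraries.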

Additional observations from a re-analysis of the deposited data

Results flagged for a closer look

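Of 64 groups of 4 to 10 libraries examined, 2 held a library far from the others, where chance flags about 1 in 20. On the scale of the nuclear libraries alone, Hspa1a stood at 12.7 CPM in nuclear D1 number 6, with the next library at 2.22 CPM. Hspa5 stood at 38.85 CPM in RiboTag male D2 number 2, with the next at 32.1 CPM.

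The difference between D2 and D1 was not the same in nuclei and whole cells for 28 of 75 members by the edgeR interaction term. Of members 33.3% were more negative in nuclei, against 15.8% of genes, and 4% more positive, against 6.12% of genes. The log2 values were -3.14 for Hspa8, -2.05 for Hsph1, -2.02 for Hspa9, -1.89 for Hspa2, -1.50 for Dnajb12, -1.26 for Dnajc7, 0.72 for Dnajc17, 1.67 for Dnajc5b and 2.12 for Hspa1l. Of these 9 genes, Dnajb12 and Dnajc5b passed also without the 4 libraries whose 10 highest genes held over 50% of the counts. In the sorted groups Dnajc5b was only 1.18 to 1.38 times the predicted background, and Dnajb12 3.11 to 11.1 times. The part of background was not tested.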

How the results depend on the processing

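Across the counts of members called, 55 recomputed values stayed within 1.5 times the main count and 27 moved. For single genes 364 of 426 recomputed differences kept their direction and side of the threshold, 61 lost the call and 1 reversed, Dnajc6 between nuclear D2 and D1 (-0.74 with no FPKM filter). The cause was not tested. The nuclear D2 against D1 count moved from 11 to 41 with no FPKM filter and to 4 without the libraries dominated by 10 genes, and ran from 2 to 12 with 1 library left out. The whole cell count of 1 became 0 with DESeq2's size factors, with no FPKM filter and without the repeat of D1 number 1, and 2 with the lanes of D2 number 3 kept apart. The RiboTag male count of 4 became 0 under the study's further criteria and without the libraries with contrary sex genes. The RiboTag female count of 2 became 1 with no FPKM filter and 0 under the further criteria, and ran from 1 to 3 with 1 library left out. Over genes that passed every method's filter 20 members differed between RiboTag and whole cells and 27 between RiboTag and nuclei, where fewer members (34) were tested. With D1 libraries alone 16 differed between whole cells and nuclei. Without the libraries dominated by 10 genes 4 differed in the interaction of nuclei and whole cells.

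Libraries with the same replicate number did not deviate together, at correlations of -0.285 to 0.212 over 4 nuclear pairs, -0.222 to 0.106 over 6 whole cell pairs, -0.0253 to 0.153 over 6 RiboTag male pairs and -0.0501 to 0.034 over 4 female pairs. With the replicate number as a block 0 nuclear, 0 whole cell and 0 RiboTag female members were called, 3 RiboTag male members, and 38 between whole cells and nuclei. The level per kb of 10 of the 15 highest members moved by over 1 SD with summed exons as the length. Summed exons are never longer than the span, so these levels could only rise or stay, by an amount set by gene structure. Depth limited the low members, since 3 counts were up to 0.811 CPM.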

Other observations

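The whole cell D1 library named as a repeat of number 1 was summed with number 1 in the report. These runs differed by more than the 2 lanes of D2 number 3, with a chi-square per degree of freedom of 6.9 against 1.04, and different D1 libraries gave 6.02 to 147. Whether both came from the same mouse is therefore not settled by the counts. The paper counts more whole cell samples of each cell type than the 8 D1 and 6 D2 libraries used here, each from its own mouse. Between these runs, from the first to the repeat, Hsp90aa1 went from 167 to 399 CPM (a ratio of 2.39), Dnaja1 from 52.3 to 86 (1.64) and the ER member Dnajb9 from 13.6 to 17.9 (1.32). Hspa8 went from 1139 to 952 CPM (0.836). With 1 library on each side these ratios have no replicate check.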
